A study of Equus caballus with 11 samples.

Results

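The CpG sites described here lie at the starts of horse chromosomes 14 to 31, the acrocentric chromosomes, whose centromere is placed by convention at the low coordinates. A CpG was taken when it lay within the first 5 Mb of 1 of these 18 chromosomes and had at least 10 reads in all 11 libraries, both strands combined. This gave 4486 centromere-side CpGs out of 68147 CpGs of the genome read to that depth in every library. They were compared with 18802 CpGs from the interior of the same chromosomes, that is, from beyond 5 Mb up to the last 5 Mb of each chromosome. The rule used position and depth only, and no methylation value. The files used here mark no centromere, so the orientation of the chromosomes was taken from convention and was not tested.

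RRBS (reduced representation bisulfite sequencing of CpG-rich fragments cut at CCGG sites) was run on heart (4 libraries, horses 1 to 4), lung (4 libraries, horses 1 to 4) and liver (3 libraries, horses 1, 2 and 4). The animals were cold-blooded stallions aged 1 to 2 years, and the samples came from the left ventricle of the heart, the caudal lobe of the right lung and the right lobe of the liver. The same horses gave all tissues, and each library is 1 tissue piece of 1 animal with its mixture of cell types, so a level is a mean over cells and a change in cell makeup cannot be told apart from a change within cells. No expression data enter this account, so the tissue labels were not checked against marker genes. The read counts summed over the listed autosomal CpGs ran from 3255257 (liver of horse 2) to 25109840 (liver of horse 1). A read over several CpGs counts at each of them, so these sums are not numbers of reads in a library. The median depth of the centromere-side CpGs was 23 to 52 reads in heart, 24 to 53 in lung and 15 to 52 in liver. A level from few reads is the less precise one, and liver of horse 2 limited the number of CpGs shared by all libraries.

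Centromeres of mammals sit in tandemly repeated satellite DNA, and the flanking pericentromeric sequence is commonly rich in satellites, segmental duplications and heterochromatin. Methylated CpGs are the usual state of repeats in somatic cells, whereas CpG islands, the CpG-dense stretches at many promoters, are usually unmethylated. Horse centromeres are a known model because satellite arrays vary between chromosomes and a satellite-free centromere exists in this species.

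The starts of the chromosomes held more CpGs than their interior. The files listed 1976 CpGs per Mb in the first 5 Mb and 938 per Mb in the interior, where a listed CpG is one with at least 5 reads on a strand in any library. CpGs read in all libraries stood at 49.8 per Mb against 21.7 per Mb. The number of listed CpGs per Mb was higher on the centromere side on 16 of the 18 chromosomes, with chromosomes 24 and 29 as the exceptions. The CpGs also lay closer together. A centromere-side CpG had on average 7.59 listed CpGs within 100 bp, itself included, with a median of 6 and quartiles of 3 and 11. An interior CpG had 4.08 on average, with a median of 3. The mean was higher on 17 of the 18 chromosomes, all but chromosome 30. CpGs with 9 or more listed CpGs within 100 bp made up 37.3% of the centromere-side set and 9.13% of the interior set. These are counts of positions on 1 assembly as far as reads covered it, so they have no replicate and were not tested. High density was shared with the first 5 Mb of chromosomes 1 to 13, where 4170 CpGs had a mean of 6.59 and a median of 5 listed CpGs within 100 bp. At the other end of chromosomes 14 to 31, the last 5 Mb, the mean was 4.54 and the median 4. Per Mb, both of these regions were richer in listed CpGs than the centromere side, with 3747 at the starts of chromosomes 1 to 13 and 2834 in the last 5 Mb. Of CpGs read in all libraries they held 64.2 and 44.0 per Mb, above and below the 49.8 of the centromere side.

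Part of this density came from CpGs that repeated every 22 bp. This pattern was read off the positions and not off the methylation values, and it was noticed after the data had been seen. Spacings from 15 to 30 bp were scanned for CpGs with at least 5 listed partners at whole multiples of the spacing, up to 10 multiples to either side. A spacing of 22 bp was found at 476 centromere-side CpGs and at 7 interior CpGs, although the interior set was the larger. Every other spacing was found at 6 to 30 centromere-side CpGs and at 3 to 16 interior CpGs.

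**Figure D1:**
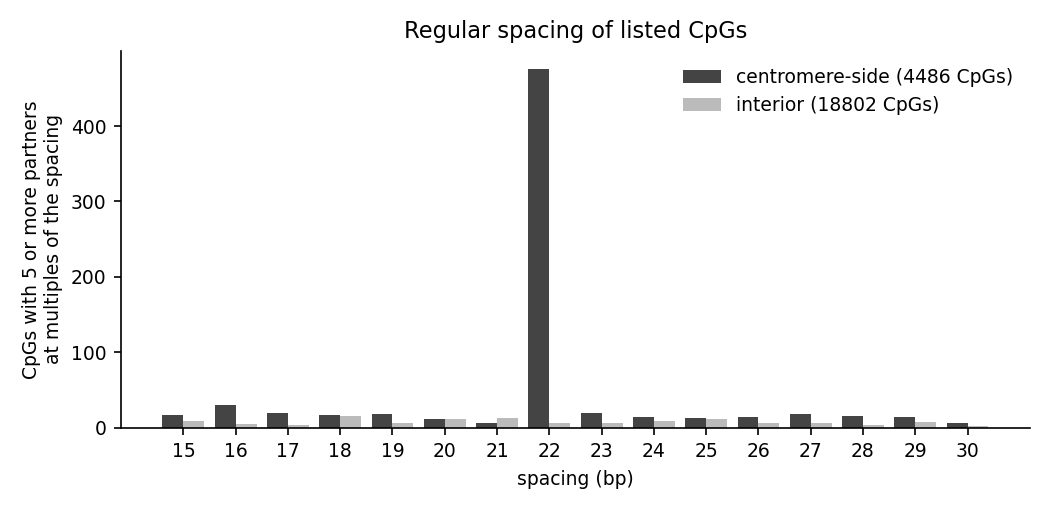
Number of CpGs (vertical axis) with at least 5 listed partners at multiples of a given spacing in bp (horizontal axis), for centromere-side CpGs (dark bars) and interior CpGs (light bars). The bar at 22 bp reaches 476 on the centromere side and 7 in the interior, and no other spacing exceeds 30.

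Stretches with at least 40 such listed CpGs, no more than 20 kb apart, were called arrays. There were 17 arrays on chromosomes 1 to 31. On chromosomes 14 to 31 there were 8, and all 8 lay within the first 5 Mb, so the interior set held 0 array CpGs. Within the 8 arrays, 17.3% of all pairs of listed CpGs over 22 and up to 220 bp apart were separated by a multiple of 22 bp. That share was 4.50% for the listed CpGs around them in the first 5 Mb and 4.32% in the interior. The arrays at the chromosome starts began within the first listed positions. On chromosome 15 the array ran from 189 to 37522 (EquCab3.0, as for all positions given here) and held 62 of the CpGs analysed. On chromosome 20 it ran from 73 to 65605 and held 325. On chromosome 26 it ran from 674 to 88871 with 333 CpGs, and a smaller array lay at 760074 to 785637 with 7. On chromosome 28 it ran from 385 to 169902, the longest at 169.5 kb, with 401 CpGs. Further from the start lay arrays on chromosome 30 at 52644 to 72751 with 3 CpGs, on chromosome 25 at 148403 to 152095 with 0 CpGs read in all libraries, and on chromosome 19 at 2370299 to 2420613 with 50. The arrays thus held 1181 of the 4486 centromere-side CpGs, or 26.3%, on 7 of the 18 chromosomes, and 11 chromosomes showed none. The other 9 arrays lay on chromosomes 1, 2, 4, 8, 9 and 13, of which only the 1 at 2146608 to 2251275 of chromosome 8 fell within 5 Mb of a chromosome start. The repeated sequence itself was not read, because no genome of this build was at hand.

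Array CpGs were highly methylated in every library. Their mean level was 85.3% ± 0.24 (SD, n = 4) in heart, 86.4% ± 0.35 (n = 4) in lung and 86.2% ± 0.19 (n = 3) in liver. The remaining 3305 centromere-side CpGs stood at 63.1% ± 0.69 in heart, 64.8% ± 0.27 in lung and 63.9% ± 0.46 in liver. The lowest library over the array CpGs was heart of horse 1 at 84.99%, and the highest over the other centromere-side CpGs was lung of horse 2 at 65.1%, so both ranges lay far apart. By array, the tissue means ran from 83.8% to 84.2% on chromosome 15, from 83.6% to 84.0% on chromosome 19, from 86.5% to 87.6% on chromosome 20, from 86.0% to 86.9% for the larger array of chromosome 26, and from 84.3% to 85.7% on chromosome 28. The 3 CpGs of the chromosome 30 array were lower, at 61.8% to 63.3%. The arrays on other chromosomes varied more. The 614 CpGs of the chromosome 8 array at 2146608 had 87.5% in heart, 88.6% in lung and 88.2% in liver. The 224 CpGs of the chromosome 1 array had, in the same order, 80.6%, 81.5% and 81.4%. Lower values were found for 20 CpGs of an array on chromosome 2, at 73.1%, 73.8% and 73.5%, and for 4 CpGs on chromosome 9, at 72.1%, 68.98% and 62.2%. The median SD between horses at a single array CpG was 3.74 points in heart, 3.05 in lung and 3.66 in liver, against 5.39, 5.74 and 5.58 points at the other centromere-side CpGs.

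Not every CpG in an array was methylated. Of the 1181 array CpGs, 785 were at or above 80% in all 11 libraries and 28 were at or below 20% in all 11. Each of the 28 low CpGs had a CpG at or above 80% in all libraries within 30 bp. On chromosomes 20, 26 and 28 the same arrangement recurred 11 times, with CpGs at offsets of 0, 5, 8 and 21 bp. The CpG at offset 0 had a mean of 92.8% ± 0.45 in heart, 93.4% ± 0.67 in lung and 94.3% ± 1.0 in liver. The CpG at offset 8 had 5.8% ± 1.2 in heart, 5.0% ± 1.4 in lung and 4.6% ± 1.1 in liver. At offset 8, 10 of the 11 CpGs were at or below 20% in every library. At offset 21 the means were again above 93% in all tissues, and at offset 5 they lay between 86.7% and 87.7%. Bisulfite reads do not tell an unmethylated C from a T that these horses carry in place of the C of the assembly, so the low positions cannot be assigned to either.

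Read depth over the arrays was uneven. Relative to the median depth of each library over all CpGs read in every library, 8.38% of the array CpGs had more than 5 times that depth, against 0.452% of the interior CpGs and 1.66% of the other centromere-side CpGs. The median depth over array CpGs was 2.97, 2.77, 2.84 and 1.33 times the library median in lung of horses 1 to 4. It was 1.20, 1.62, 1.44 and 1.04 times in heart of horses 1 to 4, and 1.18, 1.27 and 1.81 times in liver of horses 1, 2 and 4. Lung was thus deeper in 3 of its 4 libraries, while lung of horse 4 lay within the range of heart and liver. The difference between lung and heart did not pass an exact permutation test (mean ratio 2.48 ± 0.77 against 1.33 ± 0.26, 2-sided p = 0.0857, with 0.0286 the smallest p that 4 against 4 can give). Only uniquely mapped reads had been kept. Whether reads of further copies elsewhere entered these positions was not tested.

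The plain mean level differed little between the chromosome starts and the interior, and it hid opposite parts. In heart, the libraries of horses 1 to 4 had mean levels of 68.2%, 69.1%, 69.5% and 69.1% on the centromere side and 67.5%, 68.3%, 68.7% and 68.2% in the interior. In lung they had 70.7%, 70.7%, 70.2% and 70.3% on the centromere side and 68.7%, 68.8%, 68.2% and 68.6% in the interior. In liver of horses 1, 2 and 4 they had 70.1%, 69.4% and 69.9% against 69.3%, 67.5% and 68.4%. The centromere side was higher in all 11 libraries. The mean difference was 0.78 ± 0.10 points in heart (exact 2-sided sign-flip test, p = 0.125), 1.90 ± 0.10 in lung (p = 0.125, exact) and 1.41 ± 0.54 in liver (p = 0.25, exact). With 4 and 3 horses these are the smallest p-values the test can give, so the design could not reach 0.05. Other chromosome ends lay further above the interior, so an excess over it was not particular to the centromere side. In heart, lung and liver the last 5 Mb of the same chromosomes had 72.4%, 73.3% and 72.6%. The first 5 Mb of chromosomes 1 to 13, arrays included, had 72.7%, 73.3% and 73.5%. The centromere side, at 69.0%, 70.5% and 69.8%, was below both in every library. The size of the difference between centromere side and interior changed with the CpGs counted. It was 7.87, 8.80 and 7.98 points in heart, lung and liver for a window of 2 Mb, 8.81, 5.91 and 3.09 points when CpGs were weighted by depth, and 0.074 points in heart with at least 20 reads in every library. Without the arrays the direction turned in every library: the centromere side was lower by 5.08 ± 0.19 points in heart, 3.78 ± 0.08 in lung and 4.45 ± 0.46 in liver. Leaving out the first 0.2 Mb of each chromosome had nearly the same effect, with differences of -4.69, -3.52 and -3.97 points. When each chromosome counted equally, heart changed sign as well, to -0.71 points. Both alternatives without CpGs were chosen after the data had been seen. The lower level without arrays was a mean over pooled CpGs and did not hold on each chromosome. Averaged over the libraries, CpGs outside arrays stayed above the interior on chromosomes 15, 20, 26, 28 and 30, which hold array CpGs. On chromosome 19, with 50 array CpGs, those outside the array had 45.8% against 70.05% in the interior.

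By distance from the chromosome start, the mean level was highest in the first 0.2 Mb. Most CpGs there lay in the arrays, which 11 of the 18 chromosomes lack. The first 0.1 Mb held 1181 CpGs, 1005 of them in arrays, at 82.3% ± 0.52 in heart, 83.6% ± 0.22 in lung and 82.9% ± 0.20 in liver. From 0.1 to 0.2 Mb, 184 CpGs, 119 of them in arrays, had 76.4%, 78.1% and 77.1% in the same order. From 0.2 to 0.5 Mb only 87 CpGs were read in all libraries, and they had 62.5%, 62.7% and 61.3%. Beyond 0.5 Mb no steady trend was seen. The 292 CpGs from 0.5 to 1 Mb had 59.0%, 61.0% and 58.1%. The 501 CpGs from 1 to 2 Mb had 70.9%, 72.4% and 71.7%, and the 821 CpGs from 2 to 3 Mb had 60.3%, 61.9% and 60.8%. At the border of the window, the 734 CpGs from 4 to 5 Mb had 59.0%, 60.3% and 60.9%, and the 2154 CpGs from 5 to 10 Mb had 69.6%, 70.6% and 70.8%.

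**Figure D2:**
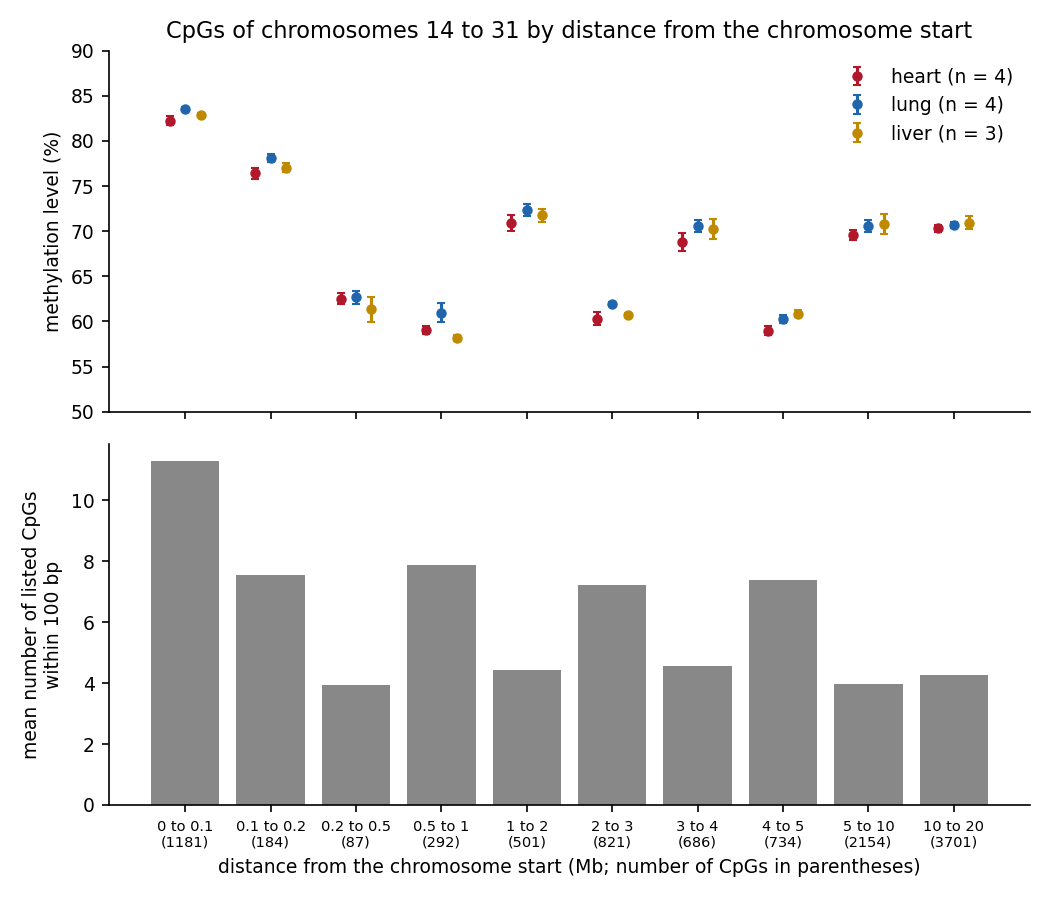
Upper panel, mean methylation level in percent (vertical axis) by distance from the chromosome start in Mb (horizontal axis, number of CpGs in parentheses), with mean and SD of the libraries of heart, lung and liver. Lower panel, mean number of listed CpGs within 100 bp. The first 0.1 Mb has the highest level, 82.3% in heart and 83.6% in lung, and the highest density, while bins beyond 0.2 Mb fall between 58.1% and 72.4%.

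At the same density, array CpGs stood apart from all others. In the interior, the level fell with density in heart from 74.9% ± 0.57 for CpGs with 1 to 3 listed CpGs within 100 bp to 64.6% ± 0.58 for 4 to 8 and 39.4% ± 0.35 for 9 or more. Centromere-side CpGs outside arrays had 73.3% ± 0.85, 66.4% ± 0.77 and 36.6% ± 0.77 in heart in these classes. Array CpGs had 84.4% ± 0.78 in the middle class (198 CpGs) and 85.5% ± 0.33 in the densest class (975 CpGs). Lung and liver gave the same picture, with 86.4% and 86.2% for the densest array CpGs, 38.8% and 37.8% for the densest CpGs outside arrays, and 40.2% and 39.8% for the densest interior CpGs. Over all centromere-side CpGs of the densest class the level was 65.1% in heart, 66.5% in lung and 66.0% in liver, between 25.7 and 26.3 points above the interior, and the excess rested on the arrays. At the starts of chromosomes 1 to 13, the 702 CpGs of the densest class outside arrays had 62.7% in heart, 64.7% in lung and 66.3% in liver, so dense CpGs outside arrays were less methylated at the starts of chromosomes 14 to 31 in every library. This contrast was added after the data had been seen and has no test.

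**Figure D3:**
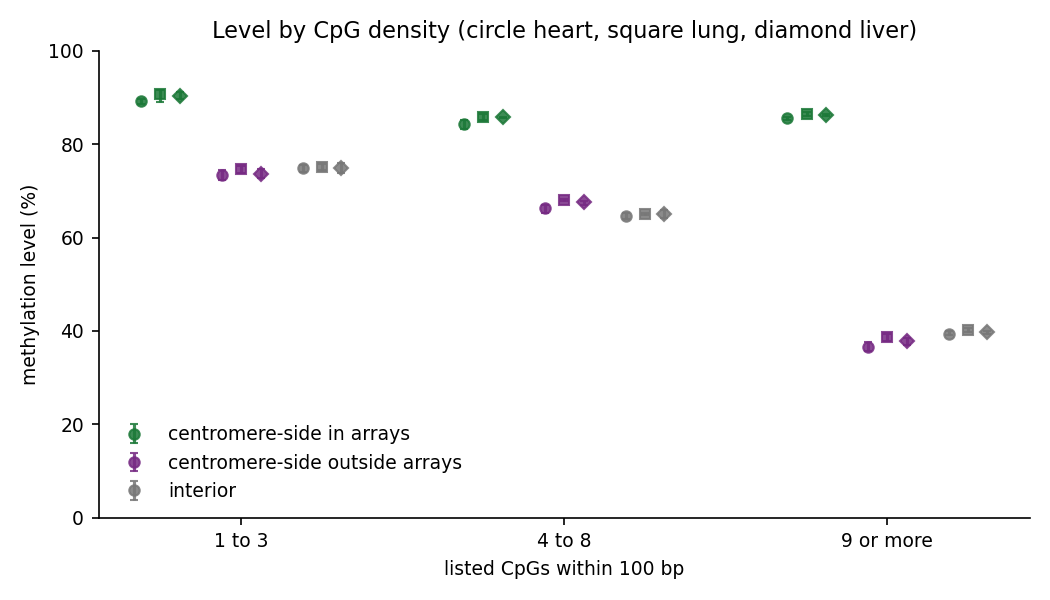
Mean methylation level in percent (vertical axis) by the number of listed CpGs within 100 bp (horizontal axis) for centromere-side CpGs in arrays, centromere-side CpGs outside arrays and interior CpGs. Symbols are tissue means (circle heart, square lung, diamond liver) and bars the range of the libraries. In the densest class the arrays lie at 85.5% to 86.4% and both other sets at 36.6% to 40.2%.

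The 18 chromosomes did not behave alike. Centromere-side CpGs were more methylated than the interior in all 11 libraries on 5 chromosomes, less methylated in all 11 on 8, and mixed on 5. Chromosome 20 had the largest positive difference, 81.5% against 60.5% averaged over the libraries, followed by chromosome 28 with 82.6% against 65.9% and chromosome 26 with 84.3% against 68.6%. These are the 3 chromosomes with most CpGs in arrays, 325, 401 and 340. Chromosome 15, with 62 array CpGs, had 76.1% against 68.8%, and chromosome 17, with 0, had 73.0% against 68.5%. Outside their arrays, the centromere-side CpGs had 67.6% on chromosome 20, 68.9% on chromosome 28, 75.6% on chromosome 26 and 73.1% on chromosome 15. Each of these values lay above the interior of its own chromosome. Chromosome 19 had the largest negative difference, 49.5% against 70.05%, and the difference lay between -21.1 and -19.9 points in every library. On that chromosome 37.9% of the centromere-side CpGs had a mean at or below 20%. Chromosome 22 followed with 56.7% against 68.1%, chromosome 24 with 59.5% against 69.6%, chromosome 23 with 57.8% against 66.8% and chromosome 21 with 66.0% against 72.9%. Smaller negative differences were found on chromosome 25 (64.6% against 70.3%), chromosome 14 (62.7% against 68.2%) and chromosome 27 (67.7% against 70.7%). The mixed chromosomes were 16 (69.9% against 68.8%), 18 (68.2% against 67.7%), 29 (72.6% against 70.9%), 30 (72.1% against 69.7%) and 31 (75.7% against 74.6%).

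**Figure D4:**
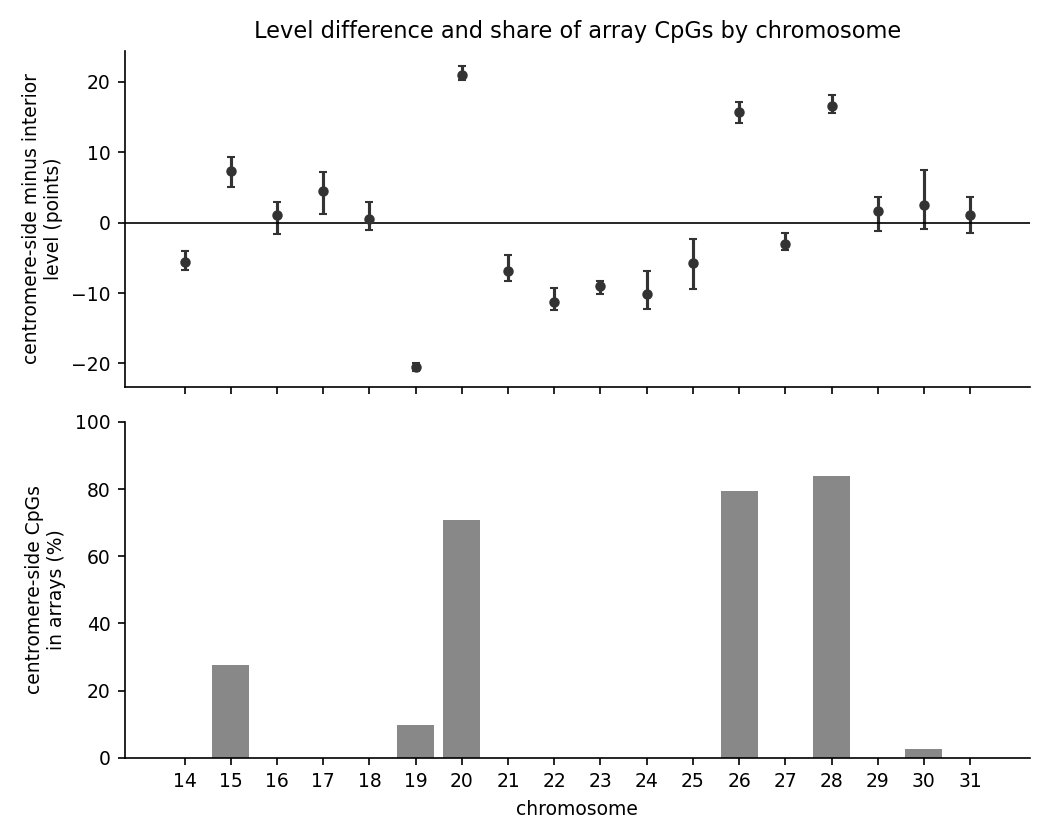
Upper panel, centromere-side minus interior methylation level in points (vertical axis) for each of chromosomes 14 to 31 (horizontal axis), as the mean and the range of the 11 libraries. Lower panel, percent of the centromere-side CpGs of that chromosome that lie in arrays. Chromosomes 20, 26 and 28, with most CpGs in arrays, have the largest positive differences, and chromosome 19 lies near -20.5 points.

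Many of the unmethylated CpGs at the chromosome starts lay in runs. Of the centromere-side CpGs, 511 (11.4%) were at or below 20% in all 11 libraries, close to the 11.1% of the interior, and 187 of them lay on chromosome 19. There were 22 runs of at least 5 neighbouring CpGs, no more than 200 bp apart, that were all low in this way, on 11 chromosomes, and they held 310 of the 511 low CpGs (60.7%). The 4 longest were on chromosome 19. The run at 4947162 to 4948074 held 59 CpGs with mean levels between 0.39% and 0.94% in the libraries, and the run at 4949006 to 4949440 held 23 CpGs at 0.88% to 4.85%. The run at 2318992 to 2319534 held 55 CpGs at 0.16% to 0.51%, and the run at 2318417 to 2318676 held 29 CpGs at 0.37% to 1.33%. This pair of runs lay before, but not next to, the chromosome 19 array that starts at 2370299, whose CpGs were at 83.6% in heart. The fifth run lay at the tip of chromosome 23, from 203 to 567, with 19 CpGs. Its level was 0.20%, 0.54%, 0.30% and 0.43% in heart of horses 1 to 4, 3.06%, 1.62%, 4.73% and 4.98% in lung, and 2.50%, 0.82% and 1.26% in liver of horses 1, 2 and 4. Heart lay below both other tissues with no overlap, at levels where all tissues counted as unmethylated. The position tables of the study annotate no position inside these runs, so no gene is named for them. Those tables list differentially methylated sites, where CpGs low in every library would hardly appear. Whether genes lie at these runs was therefore not examined. Runs of at least 5 CpGs with tissue means between 30% and 70% at every CpG were looked for and 0 were found.

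Tissue differences in the mean level of the centromere-side CpGs were small. Lung had 70.5% ± 0.26 and heart 69.0% ± 0.57, a difference of 1.49 ± 0.31 points (SE), with every lung library above every heart library (exact 2-sided permutation p = 0.0286, the smallest that 4 against 4 can give, adjusted p = 0.0857 by Benjamini-Hochberg over 6 tests). Lung exceeded liver (69.8% ± 0.38) by 0.69 ± 0.26 points, with no overlap (exact p = 0.0571, the smallest that 4 against 3 can give, adjusted p = 0.114). Heart minus liver was -0.81 ± 0.36 points with overlapping libraries (exact p = 0.114, adjusted p = 0.114). None passed the adjusted threshold of 0.05. With so few libraries none of the 6 tests could have passed it, even with full separation in each, so this outcome was fixed by the design. By chromosome, lung was above heart on 16 of 18, with a median difference of 1.25 points and extremes of -0.25 points on chromosome 31 and 3.72 points on chromosome 30. The excess of the centromere side over the interior was larger in lung than in heart by 1.12 ± 0.07 points, with no overlap of the libraries (exact p = 0.0286, adjusted p = 0.0857). For heart minus liver the difference of the excess was -0.64 ± 0.32 points, with overlapping libraries (exact p = 0.114, adjusted p = 0.114). Weighted by read depth, both differences of the excess changed sign, to -2.90 and 5.72 points, while the centromere-side level itself kept its direction, with lung minus heart at 3.35 and heart minus liver at -0.12 points.

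Single CpGs at the chromosome starts were called differentially methylated sites (DMSs) less often than over all tested CpGs. A DMS needed an adjusted p below 0.01 in a moderated quasi-likelihood logistic regression and a difference of at least 25 points, with Benjamini-Hochberg adjustment over all CpGs tested in the comparison. Between lung and heart, 90 of the 4486 CpGs were DMSs, or 2.01%, against 2.71% of all 116927 tested CpGs and 3.63% of the interior CpGs. Of these, 65 were higher in lung and 25 higher in heart, where the whole table had 1.54% higher in lung and 1.17% higher in heart. Between lung and liver, 105 were DMSs, or 2.34%, against 3.82% of all tested and 4.26% of the interior CpGs. Here 60 were higher in lung and 45 higher in liver, with 2.27% and 1.55% over the whole table. Between heart and liver, 182 were DMSs, or 4.06%, against 5.84% of all tested and 6.63% of the interior CpGs, with 81 higher in heart (3.00% over the whole table) and 101 higher in liver (2.84%). The difference in the shares themselves has no test, since neighbouring CpGs share reads and fragments. The arrays held almost none of the DMSs: 1 of 1181 CpGs between lung and heart, 0 between lung and liver and 1 between heart and liver, with 2, 0 and 3 CpGs past the adjusted p alone. Outside the arrays the shares were 2.69%, 3.18% and 5.48%, of which the first was close to the share over all tested CpGs. In the same order, the first 5 Mb of chromosomes 1 to 13, arrays included, had 2.66%, 2.64% and 5.64%. These shares also lay below those over all tested CpGs, so a lower share was not limited to the centromere side. The last 5 Mb of the acrocentric chromosomes had 3.03%, 4.19% and 6.46%, each above the share over all tested CpGs. The median absolute difference at a single CpG was 1.96, 2.05 and 2.44 points in the arrays in these comparisons, 4.21, 4.38 and 4.45 points at the other centromere-side CpGs and 4.30, 4.76 and 4.97 points in the interior.

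In all, 258 of the 4486 CpGs (5.75%) were DMSs in at least 1 comparison, against 8.87% of the 68147 CpGs read in every library and 9.98% of the interior CpGs, and they were found on all 18 chromosomes. The comparisons share libraries, and the counts by pair were 49 CpGs called against heart in both of its comparisons, 60 called against liver in both and 10 called against lung in both. Of the 1673 centromere-side CpGs with 9 or more listed CpGs within 100 bp, 18 were among them (1.08%, against 4.19% of such interior CpGs). Of the 1365 in the first 0.2 Mb, most of them array CpGs, 8 were called (0.586%), and of the 3121 beyond it 250 (8.01%). None had more than 5 times the library median depth. The horse enters these data as a pair across tissues. With horse as a block, edgeR called 89, 91 and 149 of the centromere-side CpGs (1.98%, 2.03% and 3.32%, against 2.56%, 3.31% and 4.64% of all tested). The moderated quasi-likelihood test with that block called 0 CpGs of the whole table in each comparison. At an unadjusted p below 0.05 it had 626, 368 and 436 of the centromere-side CpGs (13.95%, 8.20% and 9.72%), against 15.7%, 11.3% and 14.7% of all tested. Without liver of horse 1, the calls fell to 55 between lung and liver and to 111 between heart and liver.

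Windows of 1000 bp were also called less often than over the whole table. Of 575 windows with at least 3 centromere-side CpGs, 44 were called between lung and heart (7.65%, against 11.8% of all tested windows), 37 between lung and liver (6.43%, against 10.7%) and 57 between heart and liver (9.91%, against 16.6%), at an adjusted p below 0.05 and a difference of at least 10 points. In the interior the shares were 13.98%, 11.5% and 17.7%. Of the 159 windows with array CpGs, 0 were called in any comparison, and 9, 0 and 0 passed the adjusted p of the same test alone. Without liver of horse 1, 19 windows were called between lung and liver.

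Heart stood apart at a group of CpGs in MGLL, which encodes monoglyceride lipase, an enzyme of fat breakdown. The 6 CpGs lie in an intron at chromosome 16, 1778684 to 1778891, and were the largest cluster of DMSs between lung and heart. A cluster is a run of at least 3 DMSs of 1 direction no more than 200 bp apart. Heart of horses 1 to 4 had mean levels of 13.2%, 8.2%, 15.04% and 17.8%. Lung had 64.6%, 69.3%, 82.3% and 76.0%, and liver of horses 1, 2 and 4 had 66.6%, 62.4% and 75.4%. Every heart library lay below every library of the other tissues. The mean difference over the 6 CpGs was 57.9 points between lung and heart, with adjusted p-values between 7.5e-07 and 0.0043 (moderated quasi-likelihood test), and 5 of the 6 were also called against liver with a mean of 59.2 points. The window that holds them was called against heart in both comparisons, also in each fit that left out a library, and at least 5 of the 6 CpGs stayed called against lung in those fits. Another CpG in an MGLL intron, at position 1754942 and mentioned after its value had been seen, went the other way, with heart above liver by 34.97 points (adjusted p = 0.0065, moderated quasi-likelihood test).

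NCBP1, which encodes a subunit of the nuclear cap-binding complex, carried the second cluster, 5 CpGs in an intron at chromosome 25, 4696964 to 4697157. Heart had 51.9%, 42.4%, 38.3% and 46.7% in horses 1 to 4. Lung had 95.03%, 92.1%, 92.25% and 88.96%, and liver had 94.8%, 95.9% and 91.4%. The groups did not overlap, and heart was lower by 46.0 points than lung on average (adjusted p 4.4e-06 to 3.1e-05, moderated quasi-likelihood test) and by 47.9 points than liver (adjusted p 2.9e-06 to 1.4e-05). All 5 CpGs stayed called in every fit that left out a library.

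Another cluster of this kind lay in an intron of PPM1L, which encodes a protein phosphatase, with 3 CpGs at chromosome 19, 4986569 to 4986597. Heart had 15.6%, 11.6%, 45.2% and 12.5%, lung 59.1%, 69.5%, 64.3% and 61.1%, and liver 67.5%, 100% and 71.7%. Heart of horse 3 was far above the other heart libraries but still below all of lung and liver. Heart was lower than lung by 46.3 points on average, with all 3 CpGs called in 2 of the 8 fits that left out a library, and lower than liver by 56.7 points, with all 3 called in 7 of 7. The remaining cluster with an annotated position, 3 CpGs at chromosome 18, 3906237 to 3906279, is annotated as upstream of the microRNA gene eca-mir-8937-1. It was named after its values had been seen, and without lung of horse 1 (against heart) or liver of horse 1 (against liver) 0 of its CpGs were called. No cluster was higher in heart than in lung.

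SHOX2 went the other way. This homeobox transcription factor is known for its part in the sinoatrial node of the heart and in limb growth. In the window at chromosome 19, 1828001 to 1829000, whose annotated positions are coding, 3 CpGs had 53.7%, 39.8%, 33.3% and 44.4% in heart of horses 1 to 4. Lung had 17.3%, 20.8%, 13.8% and 12.3%, and liver had 19.6%, 2.2% and 17.7%. Every heart library lay above every library of the other tissues. The window differed between lung and heart by -27.00 points, with an adjusted p of 0.0012 in the moderated quasi-likelihood test. It was among the 4 windows with the largest excess of heart over lung. The others were on chromosome 31 at 1474001 to 1475000 (lung 61.4% ± 8.0, heart 90.6% ± 2.4), on chromosome 17 at 4929001 to 4930000 (19.7% ± 11 and 43.9% ± 8.6) and on chromosome 17 at 1211001 to 1212000 (17.4% ± 9.9 and 46.3% ± 5.5), none with an annotated position. The last of these was also the window with the largest excess of liver over lung, with liver at 64.8% ± 16. On chromosome 20, the window at 1135001 to 1136000 had 40.4% ± 4.2 in heart, 85.4% ± 3.9 in lung and 83.7% ± 3.1 in liver.

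Liver stood apart at clusters without an annotated position. The largest held 6 CpGs at chromosome 31, 892139 to 892200. Liver of horses 1, 2 and 4 had 21.8%, 44.5% and 63.5%, heart of horses 1 to 4 had 91.7%, 94.4%, 99.1% and 96.3%, and lung had 97.9%, 91.9%, 94.0% and 86.4%. Liver was below both other tissues in every library, by 56.5 points against lung and 59.3 points against heart, and its own horses spread over more than 40 points. Without liver of horse 1, only 2 of the 6 CpGs were called against lung and 5 against heart. On chromosome 19, 4 CpGs at 684900 to 684914 had 33.8%, 23.6% and 16.3% in liver, 68.4% to 82.5% in heart, and 82.5%, 82.0%, 91.1% and 53.8% in lung. Without liver of horse 4, 2 of these 4 CpGs were called against lung. On chromosome 23, 3 CpGs at 4257214 to 4257275 had 37.2% ± 15 in liver, 95.7% ± 4.1 in lung and 87.4% ± 16.5 in heart. On chromosome 21, 3 CpGs at 2883204 to 2883243 had 26.9% ± 18 in liver, 78.8% ± 5.5 in lung and 87.9% ± 3.2 in heart. Liver of horse 2 was the lowest library there, at 9.8%. At position 2883247, just beyond this cluster, horse 2 had 0% in every tissue and the other horses 27.9% to 95.6%.

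In the opposite direction, liver was higher at chromosome 30, 3342196 to 3342247, where 3 CpGs had 70.8%, 75.0% and 67.6% in liver of horses 1, 2 and 4. Lung had 37.0%, 36.0%, 38.5% and 17.8% and heart 7.9%, 33.2%, 12.3% and 16.2% in horses 1 to 4, so liver did not overlap with either. Without liver of horse 1, 2 of the 3 CpGs were called against lung, as were 2 of the 3 of the chromosome 21 cluster. At chromosome 24, 4031717 to 4031743, 3 CpGs had 79.3% ± 3.4 in liver, 51.1% ± 5.3 in lung and 50.9% ± 3.6 in heart. Without liver of horse 1, 1 of them was called against lung and 2 against heart. At chromosome 20, 3365355 to 3365416, 4 CpGs had 34.1% to 63.2% in liver and 12.9%, 8.3%, 21.4% and 8.3% in lung. Heart had 20.8%, 22.03%, 30.4% and 43.75%, which overlapped with liver, and without liver of horse 1 only 1 of the 4 was called. On chromosome 29, the window at 4383001 to 4384000 had 94.1% ± 1.6 in liver, 64.6% ± 6.0 in lung and 46.1% ± 5.9 in heart. On chromosome 23, the 5 CpGs of the window at 2456001 to 2457000 had 81.8% ± 5.75 in liver, 45.5% ± 13 in lung and 53.0% ± 7.0 in heart. On chromosome 19, the window at 97001 to 98000 was instead lower in liver, at 21.8% ± 12, with 73.8% ± 6.8 in lung and 58.5% ± 5.2 in heart.

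**Figure D5:**
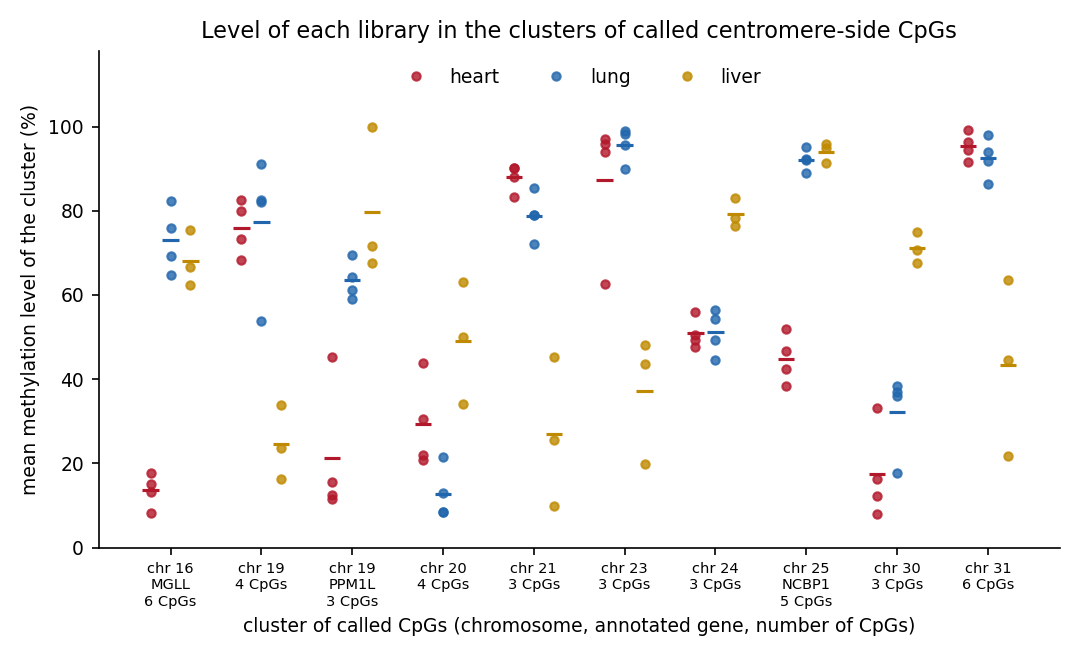
Mean methylation level in percent (vertical axis) of the clusters of DMSs named in the text (horizontal axis, by chromosome, annotated gene and number of CpGs). Points are libraries of heart, lung and liver and short lines the tissue means. Heart is lowest in MGLL (8.2% to 17.8%) and NCBP1 (38.3% to 51.9%), and liver is lowest in the chromosome 31 cluster (21.8% to 63.5%).

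Across all clusters, 6 were higher in lung than in heart and 0 higher in heart. There were 5 higher in lung than in liver and 3 higher in liver, and 3 higher in heart than in liver and 8 higher in liver. No cluster lay in an array.

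The deepest windows differed in kind. The deepest had 3 CpGs at chromosome 24, 3251115 to 3251185, read at 10.5 times the library medians, with levels of 78.7% ± 1.8 in heart, 74.9% ± 3.5 in lung and 82.2% ± 2.4 in liver. The next 2 lay in the chromosome 28 array, at 28243 to 28822 (18 CpGs, 9.17 times) and at 97369 to 97470 (5 CpGs, 8.47 times), with 91.2% ± 2.1 and 94.96% ± 0.77 in heart. Over all centromere-side CpGs, 154 (3.43%) had more than 5 times the library median depth, against 85 (0.452%) in the interior and 89 (2.13%) at the starts of chromosomes 1 to 13.

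Differences between horses that held in every tissue were rare. At 14 of the 4486 centromere-side CpGs (0.312%) all libraries of 1 horse lay at least 25 points below or above all libraries of the other horses, against 75 of 18802 interior CpGs (0.399%). None of the 14 lay in an array. At position 4091984 of chromosome 16, for example, horse 2 had 0% to 2.2% and the other horses 31.03% to 55.9%. At position 2524464 of chromosome 31, horse 3 had 96.97% to 100% and the others 0% to 53.1%. A base difference between horses and a difference in methylation cannot be told apart at such positions.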

How the data were processed

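DNA of the heart, lung and liver pieces was bisulfite-converted and sequenced as RRBS libraries, and per the file headers each library has 1 table of cytosines. The authors checked the reads with FastQC, aligned them to EquCab3.0 with BSMAP (versions not given in the sources used here), kept uniquely mapped reads and deposited, for each CpG cytosine, a read count (coverage) and percentages of C and T among those reads. The tables list cytosines with at least 5 reads. Methylated counts were recovered as coverage times the percent, and 99.8% to 99.95% of values per library gave a whole count within 0.05 points. The strands of a CpG were summed. PCR copies were not removed with molecular identifiers, so read counts cover counting error only. The position tables of the study were used only to name genes.

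A mean level is the unweighted mean over CpGs of a library. Single values were compared with exact permutation tests. CpGs (116927, 73050 and 77277 tested) and windows of 1000 bp (15084, 8984 and 9648) were tested by logistic regression with a dispersion moderated across sites by limma 3.58.1 in R 4.3.3 and Benjamini-Hochberg adjustment; edgeR 4.0.16 was an alternative. Other steps used Python 3.11.15 with numpy 2.4.6, scipy 1.17.1, pandas 2.3.3 and matplotlib 3.10.9. The fit was tested on simulated data in which each library was drawn independently. That simulation had no effect of the horse, so it does not cover the pairing of tissues. Chromosome ends were set at the highest listed position. Named were up to 3 clusters and 4 windows per comparison and direction, the 5 longest low runs, the 3 deepest windows and each chromosome, and a gene only where an annotated position lay inside. Regions and lists were chosen with earlier results of these data known. Arrays, offsets inside them, horse-specific CpGs and the alternatives without arrays, without the first 0.2 Mb and against chromosomes 1 to 13 were defined after seeing the data. The horse number is the replicate number of the libraries and was taken to pair the tissues. Over the centromere-side CpGs, each library's deviation from its tissue mean was correlated across CpGs, with r from 0.105 to 0.277 for libraries of the same horse (10 pairs) and from -0.155 to 0.0803 for different horses (30 pairs). Liver of horse 3 was not analysed here.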

Additional observations from a re-analysis of the deposited data

Results flagged for a closer look

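Of 140 groups of 4 libraries examined, 12 held a library far from the other 3, and chance alone marks about 1 in 20 groups. Groups of 3 livers were not examined, and several of the 12 hold the same CpGs. Heart of horse 1 was the lowest heart library over the array CpGs, at 84.99%, over the centromere-side CpGs of chromosome 18, at 65.9%, and over those of chromosome 26, at 82.8%. It was also the lowest at the chromosome 23 cluster at 4257214 to 4257275 and in the window that holds it, at 62.7% in both, where the other hearts had 94.0% to 97.0%. Heart of horse 3 was the highest heart at the PPM1L cluster and in its window, at 45.2% in both. Heart of horse 2 was the highest heart in the chromosome 31 window at 1474001, at 94.2%, and heart of horse 4 in the chromosome 17 window at 1211001, at 54.5%. Lung of horse 4 was the lowest lung at the chromosome 30 cluster at 3342196 to 3342247 and in its window, at 17.8% in both, and had the lowest median depth of array CpGs relative to its own library, 1.33 times.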

How the results depend on the processing

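The sign of the level difference between centromere side and interior depended on which CpGs were counted, and the cause was not tested. In heart it turned to -0.709 points when each chromosome counted equally. Over CpGs with 1 to 3 listed CpGs within 100 bp it was -1.53 in heart, -0.396 in lung and -1.25 in liver. Alternatives chosen after seeing the data gave heart, lung and liver values of -5.08, -3.78 and -4.45 without arrays, -4.69, -3.52 and -3.97 without the first 0.2 Mb, and -3.75, -2.87 and -3.76 against the first 5 Mb of chromosomes 1 to 13, where the density ratio was 1.15. Weighted by depth, the difference was 8.81, 5.91 and 3.09 points, and its own differences between tissues changed sign, from 1.12 to -2.90 for lung minus heart and from -0.636 to 5.72 for heart minus liver. A window of 2 Mb gave 7.87, 8.80 and 7.98 points, and at least 20 reads 0.0742, 1.39 and 1.03. With the replicate block, that is, pairing by horse, the levels differed by 1.49, 0.783 and -0.979 points. No call on a level changed, which says little, since the main level tests could not reach their threshold. In the order lung and heart, lung and liver, heart and liver, the CpG counts were 33 of 1994, 18 of 1220 and 29 of 1205 with at least 20 reads (1.65%, 1.48% and 2.41%, against 2.77%, 3.02% and 4.41% of all tested). They were 29, 35 and 63 of the 2245 CpGs in 2 Mb (1.29%, 1.56% and 2.81%) and 173, 207 and 349 of the 6640 in 10 Mb (2.61%, 3.12% and 5.26%), against 2.71%, 3.82% and 5.84% of all tested. With the replicate block they were 0, 0 and 0 in the quasi-likelihood fit (89, 91 and 149 with edgeR). Window counts were 18 of 245, 2 of 139 and 9 of 133 with at least 20 reads, 71, 68 and 99 with no dispersion between animals, and 11, 17 and 25 at 25 points. Leaving out 1 library gave 55 to 103 CpGs and 19 to 35 windows between lung and liver and 111 to 167 CpGs between heart and liver, lowest without liver of horse 1. Over all planned settings, 243 values kept their direction and their side of the threshold, or for counts stayed within 1.5 times. Another 24 moved beyond these limits and 6 changed direction. Over the settings that were not planned, 26 were kept, 1 moved and 9 changed direction. A level counts as kept whatever its size, so the 7.87 points of the 2 Mb window in heart are among the 243. Depth of liver of horse 2 limited the CpGs compared.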
